A study of Mus musculus with 8 samples.

Results

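Dtx1, Capn3, Itgad, C6 and Gpr83 are 5 of the 49212 genes counted, and they were chosen by their values in WT mice, where each was far lower in eTreg cells from tumors (TIL) than in eTreg cells from spleen. The libraries came from C57BL/6 mice given B16.OVA melanoma cells under the skin on day 0 and immunized intraperitoneally with NP-OVA on day 0, in complete adjuvant of Freund, and on day 7, in the incomplete form. WT mice carried FoxP3YFP-Cre and KO mice Prdm1fl/flFoxP3YFP-Cre, so both genotypes expressed YFP and Cre from the Foxp3 locus and KO mice were built to lose Prdm1, which encodes Blimp1, in Foxp3-expressing cells. CD45, CD44, YFP, CD4 and CD3 positive cells were sorted when tumors had reached no more than 1.5 cm3, and RNA-seq was made of 2 libraries in each of 4 groups, 8 in all. By the study's general methods mice were aged 5 to 10 weeks, and the number of mice behind a library was not given in the sources used here. Splenic cells were enriched on CD4 microbeads before sorting, while tumors were digested with enzymes and separated on Ficoll, so tissue and handling cannot be told apart.

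Regulatory T cells restrain immune responses through Foxp3, and those that have met antigen (eTreg cells, CD44 positive) can leave lymphoid organs for inflamed tissue or tumors. The 5 genes have unrelated textbook roles. Dtx1 encodes Deltex1, a ubiquitin ligase of the Notch pathway that takes part in T cell anergy, and Gpr83 encodes a G protein-coupled receptor known as a transcript of Treg cells. Capn3 encodes a calcium-dependent protease studied mainly in skeletal muscle, Itgad the integrin αD (CD11d) that pairs with the β2 chain and is found on splenic macrophages, and C6 a protein of the complement membrane attack complex.

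Depth differed between libraries, from 27834676 to 43903859 counts on genes. Counts on genes were 30539772 and 28269666 in WT spleen, 29724913 and 30854014 in WT TIL, 43903859 and 35076472 in KO spleen, and 35318365 and 27834676 in KO TIL. Levels below are library-scaled counts (CPM), with scaling over the 8 libraries, and 3 counts, taken as the floor of a library, were worth 0.0655 to 0.113 CPM. Floors and counting intervals cover counting error only, since PCR copies are not independent molecules.

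Prdm1, the targeted gene, did not separate the genotype labels in spleen. It was at 53.9 and 20.3 CPM in WT spleen and at 41.3 and 54.4 CPM in the splenic libraries labelled KO. In TIL it was at 108.5 and 192.7 CPM in WT and at 89.9 and 75.5 CPM in the libraries labelled KO, which were lower without overlap. Counts were summed over all exons, so they do not show whether the floxed part was lost, and KO below means labelled KO.

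The gate was checked against its own genes, and the KO TIL libraries stood apart. Cd4 was at 889.1 and 370.6 CPM in WT spleen, 808.0 and 1089.9 in WT TIL, 1025.6 and 890.7 in KO spleen, and 146.4 and 66.5 in KO TIL. Foxp3 was at 69.5 and 56.1 CPM in WT spleen, 25.5 and 60.7 in WT TIL, 43.8 and 57.4 in KO spleen, and 10.1 and 3.01 in KO TIL. Cd8a, which a CD4 gate should leave out, was at 5.20 and 5.75 CPM in WT spleen, 71.9 and 9.72 in WT TIL, 3.01 and 2.37 in KO spleen, and 215.0 and 1220.1 in KO TIL. Both KO TIL libraries were thus the lowest of the 8 for Cd4 and Foxp3 and the highest for Cd8a. The 12 T cell genes of the gate summed to 2149.8 and 6587.4 CPM in KO TIL and to between 8290.6 and 10195 CPM in the other 6 libraries, with Lck the most abundant. Values of Dtx1 and Gpr83 are therefore given below also as a percent of the counts on those 12 genes.

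The values that chose the genes are described first, without a test. Dtx1 lies on chromosome 5 of GRCm38, from 120680202 to 120711927 on the minus strand, and had 5803 and 2992 counts in WT spleen and 65 and 74 in WT TIL. Those counts correspond to 173.3 and 103.1 CPM in spleen and to 2.34 and 2.51 CPM in TIL. Dtx1 was therefore high in both splenic libraries and low, but above the floor, in both TIL libraries.

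Capn3 (chromosome 2, 120456019 to 120504913, plus strand) had 1344 and 1361 counts in WT spleen and 25 and 31 in WT TIL, or 40.1 and 46.9 CPM against 0.899 and 1.05 CPM. It was the gene with the closest agreement between splenic libraries. It shares exon bases with Ganc, an alpha-glucosidase gene on the same strand, which had between 494 and 1122 counts in the 8 libraries. Itgad (chromosome 7, 128154376 to 128223816, plus strand) had 1252 and 2000 counts in WT spleen and 29 and 22 in WT TIL, or 37.4 and 68.9 CPM against 1.04 and 0.745 CPM. Itgad shares exon bases with Cox6a2, a muscle cytochrome oxidase subunit gene on the other strand, and with Gm17831, Gm45108 and 4931431B13Rik, each at 5 counts or fewer in every library. Cox6a2 had 4 and 86 counts in WT spleen, 27 and 106 in WT TIL, 8 and 21 in KO spleen, and 137 and 141 in KO TIL, and because the strand setting of the counting was not stated, reads of the shared bases cannot be told apart.

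C6 (chromosome 15, 4727175 to 4815456, plus strand) had 476 and 1043 counts in WT spleen and 1 and 0 in WT TIL, or 14.2 and 35.9 CPM in spleen. It was the single gene of the 5 at or below the floor in WT TIL. Gpr83 (chromosome 9, 14860210 to 14870789, plus strand) had 3422 and 2465 counts in WT spleen and 95 and 157 in WT TIL, or 102.2 and 84.9 CPM against 3.42 and 5.32 CPM. Of the 5 genes, Gpr83 kept the most counts in WT TIL, so "absent" holds for C6 at this depth and "low" for the other 4.

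Pooled over libraries, WT spleen exceeded WT TIL by a ratio of CPM of 58.0 for Dtx1 (95% counting interval 49.1 to 69.1) and 44.3 for Capn3 (34.0 to 58.8). The ratio was 58.5 for Itgad (44.4 to 78.7) and 21.4 for Gpr83 (18.9 to 24.4). For C6 it was 1393 with an interval from 249.7 to 55071, because it rests on 1 TIL count. C6 passed the filter on low counts in this contrast through its splenic libraries. In the fit across all genes they were the first 5 by p among genes lower in WT TIL, a contrast in which 1.87% of 16427 genes were called lower (adjusted p under 0.05 and a log2 fold change beyond 1) and 26.2% were lower without overlap. The next gene in that order was Nsg2, with a log2 fold change of -4.09, followed by Aff3 at -4.73 and Lrig1 at -4.16, while the fifth, Gpr83, was at -4.45. Fewer cells of a type and less RNA per cell cannot be told apart in such bulk libraries, here or below.

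In spleen the levels per exon length ranked the 5 genes. Mean levels in WT spleen were 26.2 CPM per kb for Dtx1, 18.4 for Gpr83, 11.8 for Itgad, 8.66 for Capn3 and 6.21 for C6. The libraries of Dtx1 (32.9 and 19.6 CPM per kb) overlapped those of Gpr83 (20.1 and 16.7), and those of Itgad (8.29 and 15.3) overlapped those of Capn3 (7.99 and 9.33). Capn3 and C6 (3.52 and 8.90 CPM per kb) overlapped as well, whereas Gpr83 lay above Itgad in both libraries. KO spleen gave the same order of means for Dtx1 (27.8 CPM per kb), Gpr83 (13.7) and Itgad (12.6), with Capn3 at 7.39 and C6 at 5.32, but there Gpr83 (15.0 and 12.5) and Itgad (7.25 and 18.0) overlapped.

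**Figure D1:**
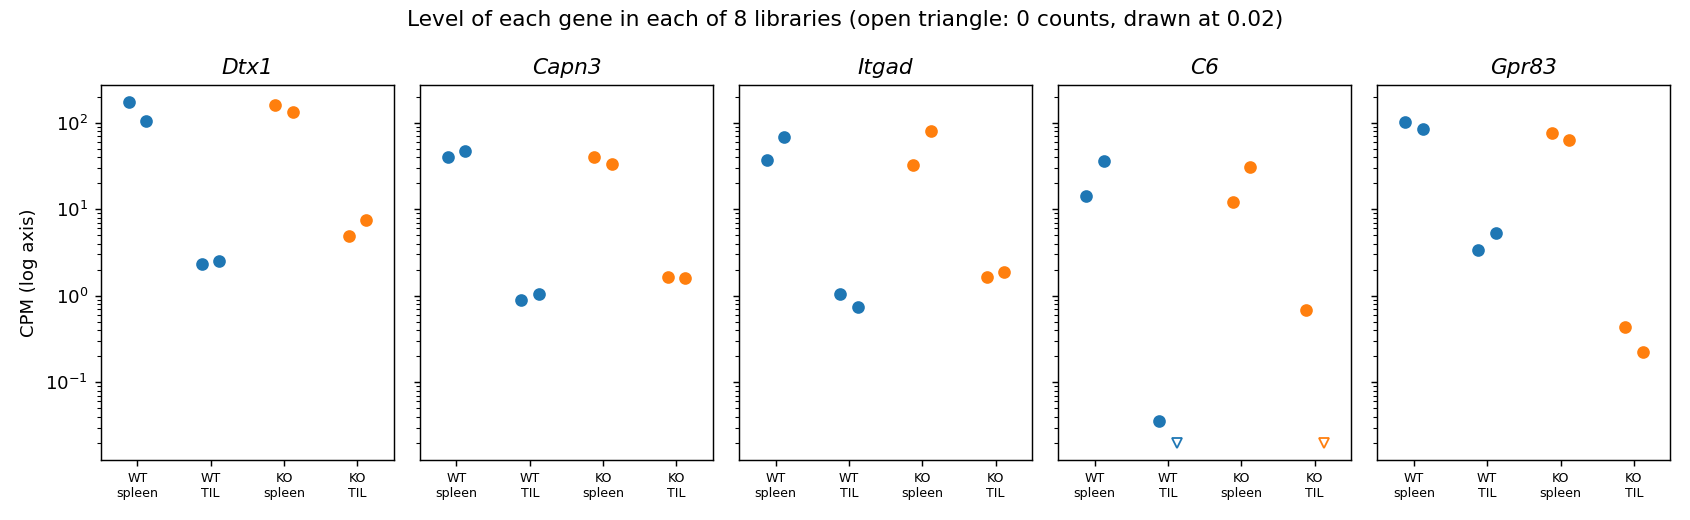
CPM on a log axis of Dtx1, Capn3, Itgad, C6 and Gpr83, with 1 point for each of 2 libraries in WT and KO spleen and TIL (KO as labelled); open triangles mark 0 counts. All splenic points lie at 12.0 CPM or above, and all TIL points at 7.56 CPM or below.

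The same tissue contrast in the KO libraries shares no library with the choice of genes, and it was tested. Dtx1 had 7344 and 5154 counts in KO spleen and 156 and 201 in KO TIL, or 160.3 and 133.0 CPM against 4.91 and 7.56 CPM. Capn3 had 1857 and 1305 counts in KO spleen and 53 and 43 in KO TIL, or 40.5 and 33.7 CPM against 1.67 and 1.62 CPM. Itgad had 1498 and 3144 counts in KO spleen and 53 and 50 in KO TIL, or 32.7 and 81.1 CPM against 1.67 and 1.88 CPM. All 3 genes were high in both splenic libraries and low in both TIL libraries, with no overlap.

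C6 had 549 and 1201 counts in KO spleen (12.0 and 31.0 CPM) and 22 and 0 in KO TIL (0.692 and 0 CPM). Gpr83 had 3500 and 2461 counts in KO spleen (76.4 and 63.5 CPM) and 14 and 6 in KO TIL (0.440 and 0.226 CPM). C6 was therefore detected in 1 of the 2 KO TIL libraries, and Gpr83 was above the floor of 3 counts in both. All 5 genes were lower in KO TIL without overlap, as were 33.9% of the 16933 genes tested.

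By the quasi-likelihood test of edgeR, adjusted by Benjamini-Hochberg, Dtx1, Capn3 and Itgad were called lower in KO TIL, beside 0.543% of all genes tested. Gpr83 and C6 passed the filter on low counts through their splenic libraries, with few counts in KO TIL. Their test values are therefore given as a description, and nothing further is read from them. Gpr83 fell by 7.63 on the log2 scale (SE, standard error, 0.45, adjusted p = 0.0332 in edgeR's test, lower in 2 of 2 TIL libraries). For Dtx1 the log2 fold change was -4.52 (SE 0.31, adjusted p = 0.0332 in edgeR's test) and for Capn3 -4.45 (SE 0.30, the same adjusted p). Itgad fell by 4.97 (SE 0.58, adjusted p = 0.0471 in edgeR's test). C6, at -5.84 with an SE of 1.50, did not pass (adjusted p = 0.0838 in edgeR's test), and its 2 TIL libraries differed most from each other. The smallest adjusted p of any gene in this contrast was 0.0267 in edgeR's test, and an exact two-sided permutation test of 2 libraries against 2 could not go below p = 0.333.

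As ratios of pooled CPM, KO spleen exceeded KO TIL by 24.2 for Dtx1 (95% counting interval 21.8 to 26.9), 22.7 for Capn3 (18.6 to 28.2) and 31.1 for Itgad (25.6 to 38.2). The ratio was 54.9 for C6 (36.2 to 87.9) and 205.8 for Gpr83 (133.2 to 337.2). Set beside the WT ratios, those of Dtx1, Capn3, Itgad and C6 were smaller in KO and that of Gpr83 larger. The WT values were what chose the genes, so nothing is read from the smaller ratios in KO. Whether the tissue contrasts differ between genotypes was not tested. With KO spleen library 1 left out, the log2 fold changes were -4.35 for Dtx1, -4.29 for Capn3 and -5.45 for Itgad. With library 2 left out they were -4.61, -4.55 and -4.13. In those fits the spread comes from the KO TIL pair alone, and none of these genes passed. Without KO TIL library 1, Dtx1 was at -4.26, Capn3 at -4.50, Itgad at -4.91 and C6 at -12.64. Without KO TIL library 2 they were at -4.82, -4.39, -5.01 and -4.87. In those fits the spread comes from the KO spleen pair alone, so the difference between the KO TIL libraries, large for C6, does not enter.

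**Figure D2:**
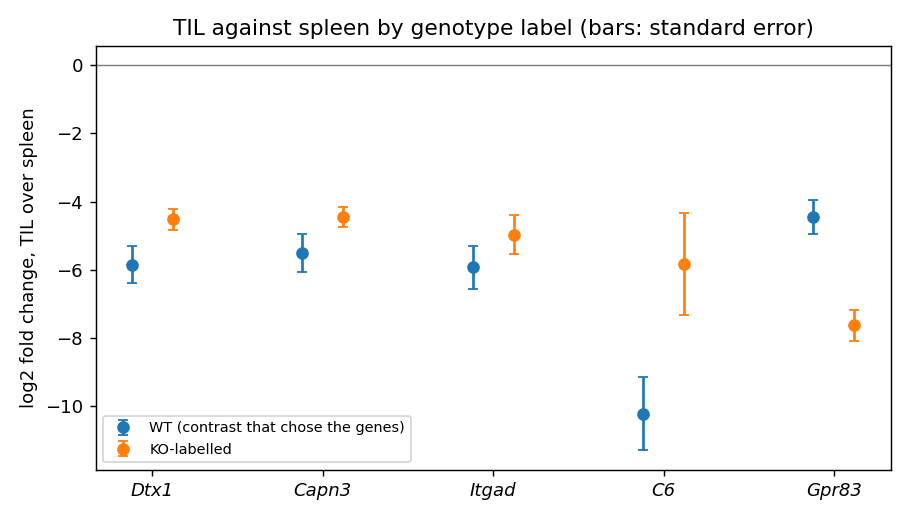
Log2 fold change of TIL over spleen for each gene in WT, the contrast that chose the genes, and in the libraries labelled KO, with bars for the standard error (2 libraries against 2). Gpr83 is at -4.45 in WT and -7.63 in KO, and the other 4 genes lie nearer to 0 in KO. Because the WT values chose the genes, nothing is read from that shift.

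Relative to the T cell genes of the gate, the tissue difference kept its direction in every library. Dtx1 counts were 1.78% and 1.60% of T cell gene counts in KO spleen and 0.228% and 0.115% in KO TIL, beside 0.0281% and 0.0246% in WT TIL. Gpr83 counts were 0.848% and 0.766% in KO spleen and 0.0205% and 0.00342% in KO TIL, beside 0.0411% and 0.0521% in WT TIL. A fit with this scaling put the median log2 fold change of all genes at 1.34 in place of 0.01. Capn3 was then at -3.08 and no longer passed (adjusted p = 0.0569 in edgeR's test), while Dtx1 (-3.31) and Itgad (-3.67) were called lower. C6 was at -4.05 and Gpr83 at -6.15, given as a description only. Of all genes called in this contrast, 59.6% were higher in KO TIL in the first fit and 94.9% with the T cell scaling.

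Genotype was compared within each tissue, and both comparisons share their WT libraries with the contrast that chose the genes, so the values of the 5 are given as a description, with no test. In spleen the KO and WT values of Dtx1, Capn3, Itgad and C6 overlapped, with log2 fold changes of 0.04, -0.29, 0.04 and -0.29. Gpr83 was lower in both KO splenic libraries than in either WT one, as were 13.6% of the 16583 genes tested, at -0.47 in log2. No gene of any kind was called in spleen by edgeR's test (0% of 16583; 489 had an unadjusted p under 0.05), and DESeq2 called 75 on the same 4 libraries.

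In TIL, Gpr83 was lower in the libraries labelled KO. Its levels of 0.440 and 0.226 CPM in KO TIL lay below the 3.42 and 5.32 CPM of WT TIL, as 19.5% of the 15935 genes tested lay lower without overlap. Its log2 fold change was -3.68 (-2.02 with the T cell scaling), and the WT to KO ratio of pooled CPM was 12.8 (95% counting interval 8.13 to 21.4). Over all genes, edgeR's test called 0% in TIL (1573 had an unadjusted p under 0.05), and 761 were called by DESeq2 on those 4 libraries. The direction drawn here is that of the libraries labelled KO, which were also those low in Foxp3 and Cd4.

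Dtx1, Capn3 and Itgad were higher in both KO TIL libraries than in either WT TIL library, as were 17.9% of genes tested, with log2 fold changes of 1.36, 0.75 and 0.99. With the T cell scaling these were 2.70, 2.26 and 2.40. Low values in these WT TIL libraries were what chose the genes, so nothing is read from this direction. C6, at 22 and 0 counts in KO TIL and 1 and 0 in WT TIL, overlapped and was left out by the filter on low counts.

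Dtx1 belongs to the Notch pathway, in which a ligand on a neighboring cell releases the receptor's intracellular part to act with Rbpj. Of 31 other Notch pathway genes tested, 0 were called in KO TIL against KO spleen (0.543% of all genes were called lower), where the list's median log2 fold change was 0.18 beside 0.01 for all genes. In that contrast 0.803% of all genes were called higher. In WT, 1 of 30 was called lower and 2 were called higher, beside 1.87% of all genes called lower and 4.1% called higher. The lower one was Hes5, a Notch target at 0.388 and 0.689 CPM in spleen and 0 in both TIL libraries. The higher ones were the ligand gene Dll4 and Rbpj, which was at 68.5 and 35.5 CPM in WT spleen and 243.1 and 228.2 CPM in WT TIL. The 3 most abundant genes of the list were Adam10, a protease that cuts the receptor, Dtx3l and Ncstn, a subunit of gamma-secretase. Notch1 was at 146.6 and 47.1 CPM in WT spleen and 116.6 and 155.9 CPM in WT TIL, so the receptor gene overlapped between tissues where Dtx1 did not. Of its paralogs, Dtx2 had a log2 fold change of 0.10 in WT and 0.06 in KO, and Dtx4 one of -2.20 in WT and -0.37 in KO, none of them called.

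Deltex1 is also known from T cell anergy, where NFAT without its partner AP-1 induces it together with other ubiquitin ligases. Of 15 genes of that program, 0 were called lower in either genotype, beside 0.543% of all genes in KO and 1.87% in WT, so the count called lower does not set the list apart. In TIL, 1 of the 15 was called higher in KO and 2 in WT, beside 0.803% and 4.1% of all genes. Nedd4, a ubiquitin ligase of the same setting, moved opposite to Dtx1, at 7.31 and 6.48 CPM in KO spleen and 105.1 and 118.0 CPM in KO TIL (log2 fold change 4.06, SE 0.22, adjusted p = 0.0332 in edgeR's test). In WT, Nedd4 (log2 fold change 3.20) and Ndrg1 (2.90) were called higher in TIL. Ndfip1, an adaptor of such ligases, Nfatc1 and Dgka, a diacylglycerol kinase that dampens receptor signalling, were the most abundant and were not called in either contrast.

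B cells also express Dtx1, marginal zone B cells in particular, and their markers were read beside it. The 10 B cell genes summed to 1570.5 and 1153.3 CPM in WT spleen, 335.4 and 495.1 in WT TIL, 1331.8 and 1417.2 in KO spleen, and 277.2 and 136.0 in KO TIL. Ighm made up most of each sum, at 1512.9 and 1060.0 CPM in WT spleen. Ms4a1, a defining surface marker, was at 0.657 and 2.48 CPM in WT spleen. Cd79b was at 45.0 and 73.6 CPM in WT spleen and at 11.4 and 22.6 CPM in WT TIL. Apart from Ighm and Cd79b, the genes of that list were at 8.37 CPM or less in both WT splenic libraries. Of the B cell genes tested, 0 of 6 were called in WT and 0 of 8 in KO, where 1.87% and 0.543% of all genes were called lower. Markers of marginal zone B cells differed in level in WT spleen. Cr2 was at 0.448 and 0.345 CPM, S1pr3 at 0.358 and 0.896 and Plac8 at 8.12 and 29.7. Cd9 was at 107.2 and 117.8 CPM, Asb2 at 98.8 and 73.0 and Cd1d1 at 57.2 and 61.2. In the marginal zone list, Asb2 was called lower in KO TIL (log2 fold change -2.16) and Plac8, its most abundant gene with Cd9 next, was called higher (6.09 in KO and 2.59 in WT). The sort on CD3 and CD4, after CD4 microbeads in spleen, should leave B cells out, and their part in the Dtx1 result was not tested.

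Calpains are calcium-dependent proteases, of which the ubiquitous forms share the small subunit Capns1 and the inhibitor Cast. Of the other calpain system genes, 0 of 10 were called in KO TIL against KO spleen and 1 of 9 in WT, Capn6, which had 0 counts in both splenic WT libraries and 7.73 and 1.90 CPM in TIL. Of all genes, 0.543% were called lower and 0.803% higher in KO, and 1.87% and 4.1% in WT, so these counts do not set the calpain list apart. The abundant genes Capn2 (153.2 and 49.4 CPM in WT spleen, 191.0 and 172.2 CPM in WT TIL), Cast and Capns1 were not called in either genotype. Muscle genes, which mark the tissue where calpain 3 is best known, summed to 5.70 and 7.79 CPM in WT spleen and 9.78 and 9.52 CPM in WT TIL, with Mylpf the most abundant and Myh1 and Myh4 at 0 in all libraries. Of these, 0 of 3 were called in KO, and Des was the 1 of 4 called in WT, higher in TIL.

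Integrin αD pairs with the β2 chain, encoded by Itgb2, and binds Icam and Vcam1 ligands. Itgb2 was at 874.8 and 412.9 CPM in WT spleen, 1156.4 and 947.6 in WT TIL, 888.6 and 740.9 in KO spleen, and 1105.8 and 1141.4 in KO TIL. Itgb2 was higher in TIL without overlap in both genotypes, as were 25.8% of genes in WT and 29.7% in KO, and it was not called. Of the β2 integrins and ligands, 1 of 11 was called lower in KO TIL (0.543% of all genes), Icam2 (log2 fold change -1.78, SE 0.22, adjusted p = 0.0485 in edgeR's test). In WT, of 10 tested, Vcam1 was called lower (-2.94; 1.87% of all genes) and Itgam higher (5.48; 4.1% of all genes). Itgal, which encodes the T cell partner of Itgb2, and Fermt3, which activates β2 integrins, were not called in either.

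Itgad lies beside Itgax and Itgam, its paralogs, on chromosome 7, with 3718 bases between Itgax and Itgad. Itgam was at 1.76 and 1.21 CPM in WT spleen, 121.2 and 13.5 in WT TIL, 2.86 and 1.14 in KO spleen, and 751.7 and 91.3 in KO TIL. Itgax was at 1.25 and 3.31 CPM in WT spleen, 14.3 and 2.17 in WT TIL, 1.33 and 6.35 in KO spleen, and 136.3 and 55.3 in KO TIL. Itgam was thus higher in TIL without overlap in both genotypes, as were 25.8% of genes in WT and 29.7% in KO. Itgax was higher in KO TIL without overlap but overlapped between the tissues in WT. The genes after Itgad, 9130023H24Rik and Armc5, had log2 fold changes of -1.03 and 0.12 in KO and were not called.

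C6 acts in the last step of complement, where C5 to C9 build the membrane attack complex. Of 19 other complement genes tested, 0 were called lower in either genotype, beside 0.543% of all genes in KO and 1.87% in WT. In WT, 4 of 19 were called higher in TIL, beside 4.1% of all genes, among them the receptor genes C3ar1 and C5ar1 and the gene C4b. In KO 0 passed, beside 0.803% of all genes called higher, with a list median log2 fold change of 2.31 beside 0.01 for all genes. Of the other terminal genes, C8a and C8b had 0 counts in all libraries, C7, on the same chromosome as C6, had 4 counts in WT TIL 2 and 0 elsewhere, and C9 had 1 count, in KO TIL 1. C5 was not analysed here. C8g was at 2.54 and 1.17 CPM in WT spleen. The most abundant complement genes, C1qb, C1qc and Cr1l, include products of macrophages, and C1qb was at 89.3 and 576.6 CPM in WT spleen and 50.9 and 137.8 CPM in KO spleen.

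C6 and Itgad shared a pattern between splenic libraries that Dtx1, Capn3 and Gpr83 did not. Library 2 exceeded library 1 for C6 and Itgad in both genotypes, whereas Dtx1 and Gpr83 were lower in library 2 in both. Itgad is a known gene of red pulp macrophages, the cells that clear red cells in spleen, and 11 of 12 genes of those cells were higher in splenic library 2 in both genotypes, beside 26% of 17958 genes tested. So were 10 of 13 monocyte and macrophage genes and 8 of 10 dendritic cell genes, so the order was not particular to red pulp macrophages. The 12 red pulp genes summed to 1022.3 and 2072.0 CPM in WT spleen, 1013.0 and 376.8 in WT TIL, 857.0 and 1764.5 in KO spleen, and 3161.3 and 475.4 in KO TIL. Csf1r, Hmox1 and Axl were the most abundant, and none of the 12 was at 0 in all libraries.

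Among the defining genes, Spic, the transcription factor of red pulp macrophages, was at 18.8 and 85.7 CPM in WT spleen, 2.12 and 0.542 in WT TIL, 12.7 and 39.6 in KO spleen, and 14.9 and 1.62 in KO TIL. Cd5l, a secreted macrophage protein, was at 58.6 and 207.3 CPM in WT spleen, 3.49 and 0.508 in WT TIL, 34.3 and 72.5 in KO spleen, and 5.85 and 0.676 in KO TIL. Slc40a1, the iron exporter ferroportin, was at 144.2 and 271.7 CPM in WT spleen, 38.2 and 7.92 in WT TIL, 171.0 and 296.3 in KO spleen, and 56.7 and 8.61 in KO TIL. These 3 genes were higher in spleen than in KO TIL 2, but other genes of the list were highest in KO TIL 1, such as Csf1r at 81.9 and 230.0 CPM in KO spleen and 1267.3 and 127.7 in KO TIL. The list's median log2 fold change was -2.43 in WT and -0.43 in KO. Of the 12 genes, 11 were higher in KO TIL 1, the library with 22 C6 counts, than in KO TIL 2, the library with 0, as were 48.9% of all genes, 13 of 13 monocyte and macrophage genes, 10 of 10 B cell genes and 8 of 8 melanoma genes, so this order too was not particular to red pulp macrophages. Itgad was at 1.67 and 1.88 CPM in KO TIL, which is 0.0775% and 0.0285% of the T cell gene counts. In WT, 5 of 11 genes of the list were called lower in TIL (Cd5l, Slc40a1, Spic, Treml4 and Vcam1), and in KO 0 of 12 were, beside 1.87% and 0.543% of all genes. Vsig4 was near the floor, at 0.239 and 0.723 CPM in WT spleen. The sort on CD3 and CD4 should leave macrophages out, and their part in the C6 and Itgad results was not tested.

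**Figure D3:**
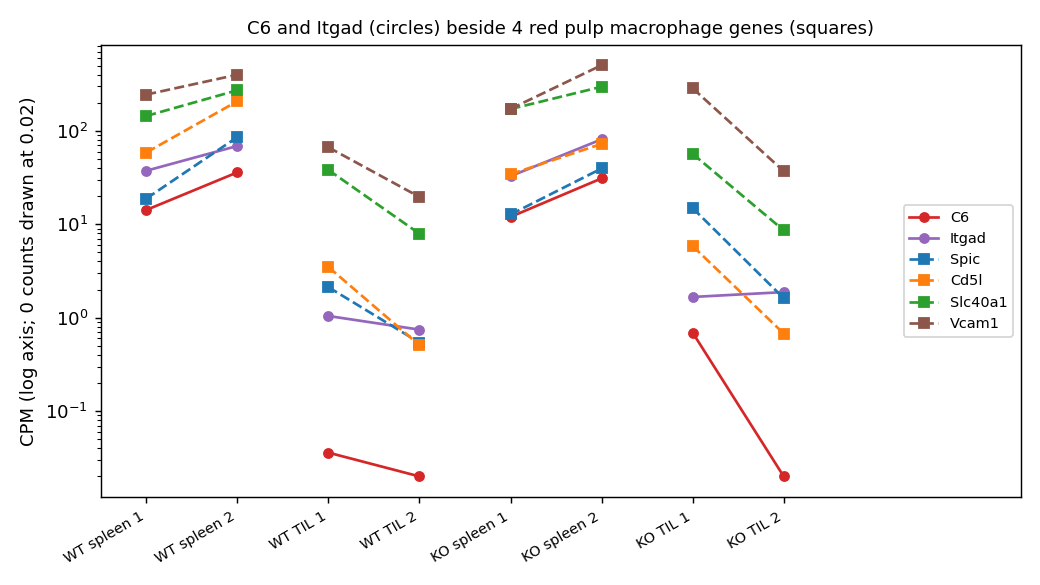
CPM on a log axis of C6 and Itgad (circles) and of Spic, Cd5l, Slc40a1 and Vcam1 (squares, 4 of the 12 list genes, picked after their values were seen) in the 8 libraries, with lines joining the 2 libraries of a group, KO as labelled, and 0 counts drawn at 0.02. In both genotypes the 6 genes are higher in splenic library 2 than in library 1. Other genes of the list, such as Csf1r and Adgre1, were highest in KO TIL 1 and are not drawn.

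Other cells of the tumor were also represented. The 13 monocyte and macrophage genes summed to 678.9 and 2623.6 CPM in WT spleen, 4334.3 and 1373.1 in WT TIL, 433.9 and 1108.7 in KO spleen, and 17252 and 2376.3 in KO TIL, led by Lyz2. The 8 melanoma genes, led by Tyrp1, summed to 8.96 CPM or less in each splenic library and to 2112.2 and 1161.2 in WT TIL and 3245.8 and 852.1 in KO TIL. Melanoma transcripts were thus present in all 4 TIL libraries, more in library 1 than in library 2 of each genotype. Of the melanoma genes, 7 of 8 were called higher in WT (4.1% of all genes) and 2 of 8 in KO (Mlana and Pmel; 0.803% of all genes). The part of these cells in the lower values of the 5 genes was not tested.

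Gpr83 is best known as a transcript of Treg cells and as a gene that glucocorticoids induce in T cells. Of the 17 Treg signature genes, 6 were called lower in KO TIL (0.543% of all genes) and 0 in WT TIL (1.87% of all genes), and Ctla4 was called higher in WT TIL. The 6 were Izumo1r, Itgae, Nt5e, Ikzf4, Ikzf2 and Socs2, and the list's median log2 fold change was -1.59 in KO and 0.45 in WT. The 12 T cell genes of the gate had a median of -0.94 in KO and -0.02 in WT, with 0 called. Ctla4, the most abundant, was at 388.4 and 300.0 CPM in WT spleen, 4141.3 and 5740.3 in WT TIL, 317.2 and 317.1 in KO spleen, and 456.8 and 922.3 in KO TIL. Gpr83 was lower in KO TIL together with those 6 genes. In WT TIL, the contrast that chose Gpr83, no Treg list gene was called lower, but Izumo1r was near the threshold (-1.90, adjusted p = 0.0542 in edgeR's test). Foxp3 itself did not pass in either genotype, with log2 fold changes of -0.57 in WT and -2.88 in KO. Of the glucocorticoid response genes, 0 of 11 were called in KO (0.543% of all genes lower and 0.803% higher), and in WT (1.87% and 4.1%) Fkbp5 was called lower (-2.01) and Sgk1 higher (2.62), while the abundant Dusp1, Tsc22d3 and Il7r were not called.

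The gene on the 3′ side of Gpr83 is Izumo1r, which encodes folate receptor 4 of Treg cells and lies 15024 bases away on the opposite strand. Izumo1r had 30398 and 38016 counts in WT spleen, 6463 and 11151 in WT TIL, 27436 and 20293 in KO spleen, and 346 and 301 in KO TIL. It was lower in TIL in both genotypes and lowest in KO TIL, the same order of groups within TIL as Gpr83. In KO it fell by 5.62 in log2 (SE 0.25), at the smallest adjusted p in that contrast (0.0267 in edgeR's test), and in WT it was at -1.90 and did not pass (adjusted p = 0.0542 in edgeR's test). The genes before Gpr83, Gm16302 and Gm16379, were at 5.79 CPM or less and were not called.

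Apart from Itgam in WT, no neighbor of the other 4 genes was called in either genotype. Rasal1, a Ras GTPase-activating protein gene 604 bases from Dtx1, was at 7.56 and 4.82 CPM in WT spleen and 1.08 and 1.73 in WT TIL, with log2 fold changes of -2.16 in WT and -2.18 in KO that did not pass (adjusted p = 0.102 and 0.148 in edgeR's test). Oas2, on the other side of Dtx1, had log2 fold changes of 5.70 in KO and 1.69 in WT, neither of them called. Tmem87a, Vps39 and Zfp106 around Capn3 had log2 fold changes between -0.60 and 0.96 over both genotypes, and Oxct1, before C6, had 0.84 in WT and 1.11 in KO, none of them called. Plcxd3 and Mroh2b beside C6 were at 8 counts or fewer in every library.

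Genes of resting Treg cells and of recirculation through lymphoid organs were read beside the 5 genes. Of 12 such genes, 6 were called lower in WT TIL (Bach2, Bcl2, Id3, Klf2, S1pr1 and Tcf7) and 2 in KO TIL (S1pr1 and Tcf7), beside 1.87% of all genes in WT and 0.543% in KO. S1pr1, the receptor for lymphoid exit, was at 415.4 and 334.5 CPM in WT spleen, 67.1 and 130.4 in WT TIL, 586.4 and 689.7 in KO spleen, and 53.0 and 69.2 in KO TIL. Klf2, the transcription factor that drives S1pr1, was at 102.5 and 268.3 CPM in WT spleen, 4.32 and 8.47 in WT TIL, 157.5 and 199.0 in KO spleen, and 88.6 and 28.3 in KO TIL. Ccr7, the lymph node homing receptor, was not called in either genotype, with a log2 fold change of 0.51 in WT and 0.73 in KO.

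Among themselves, Dtx1, Capn3 and Itgad were the most alike over the 8 libraries. The root mean square difference of centred log2 CPM was 0.40 between Dtx1 and Capn3, 0.51 between Capn3 and Itgad and 0.61 between Dtx1 and Itgad. C6 and Gpr83 stood apart, at 1.42 to 2.13 from the other genes, C6 by its counts near 0 in 3 TIL libraries and Gpr83 by its lower level in KO TIL than in WT TIL. These distances describe 8 libraries in which the tissue contrast was part of the choice of genes.

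By the same measure, the closest of 13696 other genes over the 8 libraries were named for each. For Dtx1 they were Arhgap20 (0.36), Zcchc12 (0.36) and Susd4 (0.44), and for Capn3 Zcchc12 (0.33), Arhgap20 (0.43) and Ighg3 (0.48). Arhgap20 had 166 and 158 counts in WT spleen, 0 and 0 in WT TIL, 166 and 151 in KO spleen, and 3 and 4 in KO TIL. At TIL counts near 0, as for Arhgap20, log2 CPM rests largely on the prior count of 2, so the closeness partly reflects that setting. For Itgad they were Arhgap20 (0.47), Slc16a9 (0.50) and Kcna2 (0.54), and for C6 Kcnj16 (0.68), Slc16a9 (1.01) and Kcna2 (1.15). Kcnj16, an inward rectifier potassium channel gene, had 146 and 340 counts in WT spleen, 0 and 0 in WT TIL, 197 and 356 in KO spleen, and 10 and 0 in KO TIL. Like C6, it was higher in splenic library 2 than in library 1 in both genotypes and higher in KO TIL 1 than in the other TIL libraries. For Gpr83 the closest were Pdzk1ip1 (0.80), Prg4 (0.81) and St8sia6 (0.92), each lower in KO TIL 2 than in either WT TIL library.

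The 3 genes that followed the 5 in the WT order were read in KO as well. Nsg2 had a log2 fold change of -2.92, Aff3 one of -2.93 and Lrig1 one of -3.03, and none passed (adjusted p = 0.0582, 0.0501 and 0.0648 in edgeR's test). Aff3, a nuclear protein of lymphoid cells, had 23 and 48 counts in WT TIL and 246 and 121 in KO TIL.

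Promoters were compared because the 5 genes were all lower in TIL. In RefSeq (GRCm38.p6), 5 promoter entries of 4 of them were used, 2 of these for Capn3, and the 250 bases before each RefSeq start were read, while the promoter of Itgad was not analysed here. The windows of Dtx1 and Capn3 lie inside the gene spans given above, and that of C6 runs into its span. Dtx1 had 15 CpG dinucleotides and Gpr83 18, against a median of 6 over 32851 promoters, whereas C6 had 4 and the Capn3 entries 4 and 3. Of the letters searched on both strands, CCACCC, bound by KLF factors, was present in Dtx1 and in 1 Capn3 entry, and 28.1% of all promoters hold it. The letters GTGGGAA (RBPJ, in 5.42% of promoters), TGGAAAA (NFAT, 5.93%), GTGAAAG (Blimp1 core, 3.57%) and GTAAACA (forkhead, 3.17%) were in none of the 5 windows. Likewise GAGGAAGT (PU.1 or SpiC core, 2.44%), AGAACA (1 arm of the glucocorticoid receptor site, 16.1%), CTTTGAA (TCF or LEF, 4.46%) and TATAAA (core promoter box, 12.4%) were in none. No motif searched was thus shared by all of the windows. The promoters of Gpr83 and C6 are shown for their contrast in CpG, with CG in capitals, as chr9:14859960-14860209 (plus strand, 250 bases, 18 CpG) and chr15:4726960-4727174 (plus strand, the 215 bases before the first annotated exon, 3 CpG).
Gpr83: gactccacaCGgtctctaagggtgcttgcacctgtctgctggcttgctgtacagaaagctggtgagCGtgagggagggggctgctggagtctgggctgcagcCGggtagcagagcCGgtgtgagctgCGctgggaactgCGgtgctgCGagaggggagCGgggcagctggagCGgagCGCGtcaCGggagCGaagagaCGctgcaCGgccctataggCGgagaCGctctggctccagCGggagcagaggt
C6: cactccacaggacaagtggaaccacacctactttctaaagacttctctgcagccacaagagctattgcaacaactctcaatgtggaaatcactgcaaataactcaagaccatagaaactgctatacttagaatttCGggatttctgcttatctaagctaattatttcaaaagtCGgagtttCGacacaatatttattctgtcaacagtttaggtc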

How the data were processed

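RNA-seq of 8 libraries was analysed, 2 for each of WT and KO spleen and TIL. The authors deposited raw counts per gene, made, per the submitters' notes and methods, by rRNA removal and random priming of ultra-low input RNA, Trimmomatic 0.36 for trimming, STAR 2.5.2b for mapping to GRCm38 and featureCounts of Subread 1.5.2 for unique reads in exons, with no strand setting stated. A deposited table of normalized values was not used. Each comparison was fitted to its 4 libraries with edgeR 4.0.16 in R 4.3.3 (TMM, filterByExpr, quasi-likelihood test, Benjamini-Hochberg adjustment), and a gene was called at an adjusted p under 0.05 and an absolute log2 fold change over 1. Levels are CPM with TMM factors of all 8 libraries, and likeness used log2 CPM with a prior count of 2. The fits were also run on simulated counts that held no difference in cell content between libraries, so nothing about these calls is read from that run.

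The members and lists were chosen with earlier results of these data known. Genes named are the 5 members, their 3 most alike genes, the 3 next in the WT order, their 2 nearest annotated genes on each side, called or abundant genes of the lists, and checks of label and gate. Other genes named from the lists were chosen after their values were seen, and some genes of the lists are not reported here. Alternatives were DESeq2 1.42.0, fits on 8 libraries, other scalings and filters, thinning, a replicate block and leaving out each library. Replicates differed by more than counting error (chi-square over its degrees of freedom 37.2 to 344.4). Nothing stated that replicates came from separate mice, so p-values measure the spread between these samples, which may be technical.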

Additional observations from a re-analysis of the deposited data

How the results depend on the processing

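All 5 genes stayed lower in KO TIL than in KO spleen under each alternative run. C6 also passed with DESeq2 on 8 libraries (-5.84), edgeR on 8 libraries (-5.86), T cell scaling (-4.05) and no filter (-5.84), and Capn3 was lost with T cell scaling (-3.08). In KO, C6 and Gpr83 passed the filter on low counts through their splenic libraries, so their calls under any setting are listed as a description only. With each library left out in turn, log2 fold changes ran from -4.82 to -4.26 for Dtx1, -4.55 to -4.29 for Capn3, -5.45 to -4.13 for Itgad, -12.64 to -4.87 for C6 and -8.24 to -7.22 for Gpr83. Without either KO spleen library none of the 5 passed. In WT, which chose the genes, C6 ran from -12.60 to -9.29. Gpr83 in KO against WT TIL, given with no test, was at -3.68 with DESeq2 on 4 libraries, -3.67 with DESeq2 and with edgeR on 8, -3.69 with no filter, -3.68 with the replicate block, -2.02 with T cell scaling and -4.25 to -3.30 with 1 library left out.

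The counts of genes called depended on the tool. Against 92 lower and 136 higher in KO TIL, DESeq2 called 1277 and 2536 on 4 libraries and 1080 and 2192 on 8, edgeR on 8 libraries 605 and 1138, and no filter 1060 and 2123. T cell scaling gave 2387 higher, and a mean of at least 50 counts 158 lower. Leaving out 1 library gave 0 to 1751 lower and 0 to 3207 higher. Against 307 lower and 674 higher in WT TIL, DESeq2 called 622 and 1183 on 4 libraries and 884 and 1282 on 8, and no filter 645 and 1277. EdgeR on 8 libraries called 433 higher, and a mean of at least 50 counts 449 higher. Leaving out 1 library gave 41 to 515 lower and 172 to 886 higher. Against 0 genes by genotype in spleen, DESeq2 called 75 on 4 libraries and 49 on 8, no filter 167, and leaving out 1 library 21 to 3972, the highest without WT spleen library 1. Against 0 in TIL, DESeq2 called 761 and 929, edgeR on 8 libraries 135, T cell scaling 759 and no filter 1072. The cause of these differences was not tested.

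Same-numbered libraries share only a number. Their deviations correlated at -0.22 in KO TIL and spleen, -0.03 in WT, 0.16 between spleens and 0.23 between TIL libraries. The replicate block gave 43 lower in KO TIL, 520 lower in WT TIL, 101 by genotype in spleen and 728 in TIL. It called Dtx1, Capn3 and Itgad lower in KO TIL. Crossed pairs, chosen after seeing the data, gave 999 lower and 1935 higher in KO TIL and called C6 (-6.32). C6 in TIL was at or under the floor in 3 of 4 libraries, so its fold depends on few counts.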
